A study of Mus musculus with 47 samples.

Results

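Spermatozoa carry a store of RNA that was made while they formed in the testis, because their own genes are silent. Part of it is a relic of transcripts used to build the tail, the acrosome and the condensed nucleus, and other transcripts are taken up or picked up in the epididymis. SCML2 is a germline Polycomb protein, that is, a member of the protein family that silences genes through histone marks, and the study asked whether its loss in a father changes the RNA of the descendants' spermatozoa.

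Described here are 43 genes of 23416 whose RNA was present in both sperm libraries of control sons and at or near 0 in both sperm libraries of sons of Scml2-KO fathers. They were chosen by these counts: 10 or more in each Ctrl-F1 sperm library and a sum of 3 or fewer over the KO-F1 sperm libraries, without Inhbb, keratin, collagen and ribosomal protein genes. Ctrl-F1 males, hereafter controls, and KO-F1 males came from wild-type and from Scml2-KO (-/y) littermate fathers by intracytoplasmic sperm injection (ICSI), the placing of a sperm in an oocyte. Scml2 lies on the X chromosome, so sons of either kind inherit an intact copy from the mother, and the groups do not differ in this allele by descent. KO-F2 males were sired by housing single KO-F1 males with C57BL/6 females. The labels give the background as BDF2 for both F1 groups and BDF3 for KO-F2, and the age as 8 to 12 weeks for all. RNA-seq covered liver in both F1 groups and motile swim-up spermatozoa in all 3 groups, with 2 libraries each. No control F2 library was analysed here, so generation, background, way of conception and sequencing run cannot be told apart from one another between the F1 and KO-F2 libraries.

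The F1 sperm libraries held between 1503733 and 2778171 counts, the KO-F2 libraries 11462105 and 8384266, and the liver libraries between 11339729 and 14278900. A level of 3 counts, taken as the detection limit of a library, was worth between 1.08 and 2.00 CPM (counts per 1000000 counts of the library) in F1 spermatozoa and at most 0.358 CPM in KO-F2 spermatozoa. Markers of late spermatogenesis were present in every sperm library, 18 or more of 20 above the detection limit, and hepatocyte markers summed to at most 1.65 CPM. Sperm cDNA was amplified by PCR without molecular identifiers, so limits cover counting error only.

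All 43 members were protein-coding genes, against 96.8% of the genes with 10 or more counts in each Ctrl-F1 library. Among the genes that could have met the rule, 43 of 6908, or 0.622%, did so, and the rule with Ctrl-F1 and KO-F1 exchanged found 263 genes, 2.94% of those eligible. Within the KO-F1 group, 20 members had 0 counts in both libraries, 6 had a sum of 1, 7 a sum of 2 and 10 a sum of 3. "Absent" therefore means at or below the detection limit: 0 counts in an F1 sperm library of this size still allows a level of up to 1.08 or 1.44 CPM in the respective KO-F1 library. The members were of low abundance in control spermatozoa, with a median of 8.57 CPM against 24.3 CPM over all genes with 10 or more counts in each Ctrl-F1 library. Their control counts ran from 10 to 87 in a library. The exons of 7 members (Card14, Dtl, Galntl6, Ifltd1, Mfsd3, Parpbp and Stk36) overlap those of another gene on the opposite strand, and the sperm kit does not mark strand, so reads of such pairs cannot be told apart. Genes with the same range of pooled control counts numbered 3865, and their median sum in the KO-F1 libraries was 94 counts.

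The control libraries differed between themselves as well. Of the 43 members, 34 had control CPM values within a ratio of 2 of each other, 32 were higher in Ctrl-F1 replicate 2, and the widest ratio was 6.10. The rule itself favours higher values in replicate 2, as its 10 counts are worth 4.12 CPM in replicate 1 and 6.65 CPM in replicate 2. The number of 32 is therefore not a finding about the controls. Between the Ctrl-F1 replicates, 1156 of 10026 genes with 10 or more counts in replicate 1 had at most 1 in replicate 2 (11.5%), and 393 of 7946 did so the other way (4.95%). The corresponding shares between the KO-F1 replicates were 6.28% and 4.1%. Summed late spermatogenesis markers stood at 134651 and 119313 CPM in the Ctrl-F1 libraries and at 59303 and 44573 CPM in the KO-F1 libraries, so the KO-F1 libraries were also poorer in these. Whether this has a part in the missing counts was not tested, and in bulk samples fewer cells of a type and less RNA per cell cannot be told apart.

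**Figure D1:**
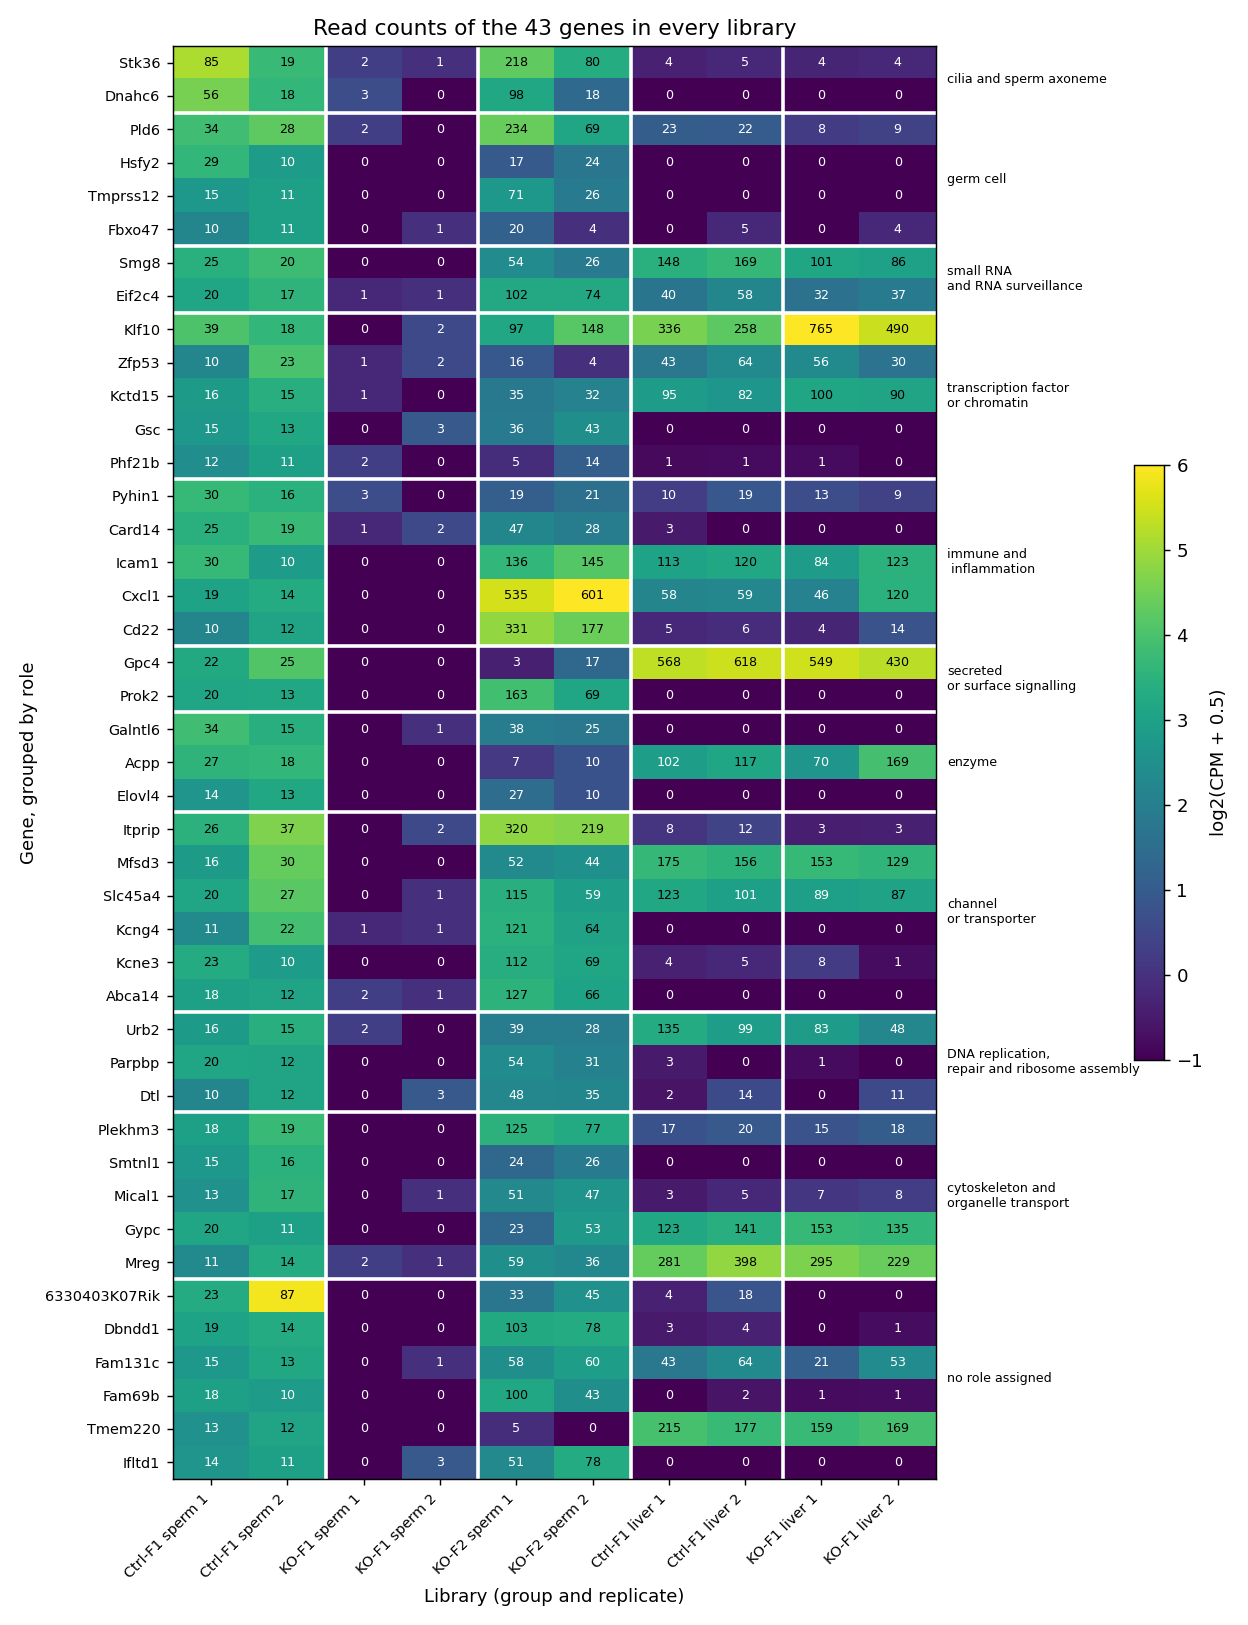
Read counts of the 43 genes (rows, grouped by role) in the 10 libraries (columns, group and replicate), printed in each cell and coloured by log2(CPM + 0.5). The KO-F1 sperm columns hold at most 3 counts in any cell, the KO-F2 columns hold 10 or more counts in both libraries for 37 genes, and 11 genes are at 0 in all 4 liver libraries.

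Promoter sequences in RefSeq (GRCm38.p6) were at hand for 35 of the 43 genes. The pair shown here holds GGAATTTCC, a sequence of the kind bound by the inflammatory factor NF-kB, which was searched on both strands after the members' values were known. Each line gives the 250 bases before the RefSeq start in the direction of the gene, with the motif in capitals. The genes are Cxcl1 (chr5:90890995-90891244, plus strand) and Icam1 (chr9:21015690-21015939, plus strand, where the motif lies on the opposite strand).
Cxcl1: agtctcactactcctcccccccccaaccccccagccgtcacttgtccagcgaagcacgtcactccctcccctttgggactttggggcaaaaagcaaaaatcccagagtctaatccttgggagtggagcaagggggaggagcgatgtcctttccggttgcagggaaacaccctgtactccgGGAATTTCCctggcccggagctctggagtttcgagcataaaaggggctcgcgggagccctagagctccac
Icam1: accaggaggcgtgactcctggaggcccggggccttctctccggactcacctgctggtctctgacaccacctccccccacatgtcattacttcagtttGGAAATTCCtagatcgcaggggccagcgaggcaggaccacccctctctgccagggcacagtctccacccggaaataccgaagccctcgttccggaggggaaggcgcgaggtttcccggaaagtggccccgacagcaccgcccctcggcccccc
The motif was found in 0.286% of 32851 RefSeq promoter windows of this length and lay 61 bases before the start of Cxcl1 and 144 before that of Icam1. TGACGTCA, the palindrome known as the cAMP response element and the only other motif searched, was found in 1.55% of the windows, among them those of Dtl and Dnahc6. The windows of the latter genes overlap annotated exons and are not printed. A match is a description of these letters and not a binding site.

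Axonemal and germ cell genes formed the first group. Stk36 (chromosome 1, 74601391 to 74636894), a kinase needed for motile cilia, had 85 and 19 counts in the controls, 2 and 1 in KO-F1 and 218 and 80 in KO-F2. Dnahc6, an axonemal dynein heavy chain now named Dnah6, had 56 and 18 counts in controls, 3 and 0 in KO-F1 and 98 and 18 in KO-F2. For both genes, replicate 1 was the higher library in Ctrl-F1 as well as in KO-F2. In CPM, Stk36 averaged 23.8 ± 15.8 in controls and 14.3 ± 6.7 in KO-F2 (SD, n = 2), and the groups overlapped. Dnahc6 averaged 17.5 ± 7.85 CPM in Ctrl-F1 and 5.35 ± 4.53 CPM in KO-F2 (SD, n = 2), with both KO-F2 libraries below both Ctrl-F1 libraries. Another 7 Dnahc genes had 10 or more counts in each control library. Those with the most KO-F1 counts were Dnahc8, with 374 and 163 in controls and 164 and 160 in KO-F1, and Dnahc7a, with 90 and 92 against 39 and 40. Dnahc10 had 40 and 12 against 15 and 3, and Dnahc11 had 16 and 11 against 7 and 23. Besides Dnahc7a, both KO-F1 counts were below both control counts for Dnahc7b, with 43 and 28 against 11 and 23. The same held for Dnahc1, with 48 and 20 against 15 and 15. Lower KO-F1 counts were therefore not particular to Dnahc6 among these genes.

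Pld6 (chromosome 11, 59783893 to 59787657) encodes a mitochondrial phospholipase family protein that matures piRNAs, the small RNAs that silence transposons in germ cells. It had 34 and 28 counts in controls, 2 and 0 in KO-F1 and 234 and 69 in KO-F2, and in CPM its KO-F2 values lay on either side of the controls. Hsfy2, a testis gene related to heat shock factors, had 29 and 10 counts in controls, 0 in both KO-F1 libraries and 17 and 24 in KO-F2. Tmprss12, a testis serine protease, and Fbxo47, an F-box protein of meiosis, had between 10 and 15 counts in each control library and at most 1 in KO-F1. In KO-F2, Pld6 and Tmprss12 overlapped the controls, and Hsfy2 and Fbxo47 were below them. The latter genes had means 4.28 and 5.15 times lower in CPM. Over all members, 21 were below both controls and 19 overlapped them, so this split was not particular to germ cell genes. The background for values below both controls was 24.6% of the genes with 10 or more counts in each Ctrl-F1 library.

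Genes of RNA regulation were Eif2c4, the Argonaute gene now named Ago4, and Smg8, part of the kinase complex that starts nonsense-mediated decay. Smg8 had 25 and 20 counts in controls, 0 in both KO-F1 libraries and 54 and 26 in KO-F2. With the detection limit in place of its 0 counts, the KO-F1 level was at least 9.37-fold lower. Eif2c4 had 20 and 17 counts in controls, 1 in each KO-F1 library and 102 and 74 in KO-F2. Its KO-F2 level differed from the controls by less than their spread, 8.86 ± 0.0515 against 9.77 ± 2.17 CPM (SD, n = 2), whereas Smg8 was 3.02 times lower in KO-F2. All 5 other Smg genes with 10 or more counts in each control library kept 22 or more counts in each KO-F1 library, and the Argonaute gene Eif2c2 went from 39 and 15 to 4 and 7.

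Among transcription factor and chromatin genes, Klf10 (chromosome 15, 38291464 to 38300711), a Krüppel-like factor induced by TGF-beta, had 39 and 18 counts in controls, 0 and 2 in KO-F1 and 97 and 148 in KO-F2. Its KO-F2 CPM values overlapped the controls. The other 4 were Zfp53, a zinc finger gene, Kctd15, a BTB domain gene, the homeobox gene Gsc and Phf21b, which encodes a PHD finger protein. They had between 10 and 23 counts in each control library, at most 3 in a KO-F1 library and, in KO-F2, CPM values below both controls. The background for such KO-F2 values was 24.6% of the genes with 10 or more counts in each Ctrl-F1 library. The 8 other Klf genes at 10 or more counts in each control library had between 15 and 371 counts in each KO-F1 library.

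Immune genes included 2 of the 3 members whose KO-F2 libraries both stood above both controls. Of all genes with 10 or more counts in each Ctrl-F1 library, 27.9% stood so. Cxcl1 (chromosome 5, 90891245 to 90893121), a chemokine that attracts neutrophils, had 19 and 14 counts in controls, 0 in both KO-F1 libraries and 535 and 601 in KO-F2. The KO-F1 level was at least 6.81-fold lower, and the KO-F2 libraries reached 59.2 ± 17.7 CPM (SD, n = 2), 6.91 times the control mean of 8.57 ± 1.05. Cd22 (chromosome 7, 30865404 to 30880342), an inhibitory receptor of B cells, had 10 and 12 counts in controls, 0 in both KO-F1 libraries and 331 and 177 in KO-F2, a mean 4.13 times that of the controls. In each of these genes, both KO-F2 libraries were above both controls. Icam1, an adhesion molecule for leukocytes, had 30 and 10 counts in controls, 0 in both KO-F1 libraries and 136 and 145 in KO-F2, and the groups overlapped in CPM.

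Markers of B cells, mast cells and T cells were also highest in the KO-F2 libraries. The mast cell markers summed to 21.8 and 23.9 CPM in Ctrl-F1, 22.0 and 0.959 CPM in KO-F1 and 439 and 205 CPM in KO-F2. For T cell markers the sums were 21.8 and 21.9, 15.8 and 7.67, and 63.4 and 58.6 CPM in the same order. The 5 B cell markers summed to 10.7 and 0 CPM in Ctrl-F1, to 0.360 and 3.84 CPM in KO-F1 and to 460 and 324 CPM in KO-F2. Among them, Cd79a, a chain of the B cell receptor, had 4 and 0 counts in controls, 0 in KO-F1 and 1798 and 846 in KO-F2. The 7 macrophage markers found in the files summed to 216 and 611 CPM in Ctrl-F1, 341 and 430 CPM in KO-F1 and 2245 and 3924 CPM in KO-F2. Lyz2, a lysozyme gene, held 21877 and 26974 counts of the KO-F2 sums, and without it the other 6 markers summed to 169 and 342 CPM in Ctrl-F1, 242 and 249 CPM in KO-F1 and 337 and 707 CPM in KO-F2, where the range overlapped that of the controls. The B cell markers above the detection limit numbered 3 and 0 of 5 in the Ctrl-F1 libraries, 0 and 1 in KO-F1 and 5 in each KO-F2 library. The part of leukocytes in the members' values was not tested. The remaining immune members lay lower. Card14, a scaffold of NF-kB signalling, had 25 and 19, then 1 and 2, then 47 and 28 counts in controls, KO-F1 and KO-F2. Pyhin1, an interferon-induced gene now named Ifi209, had 30 and 16, then 3 and 0, then 19 and 21. Both were below both controls in KO-F2 in CPM.

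**Figure D2:**
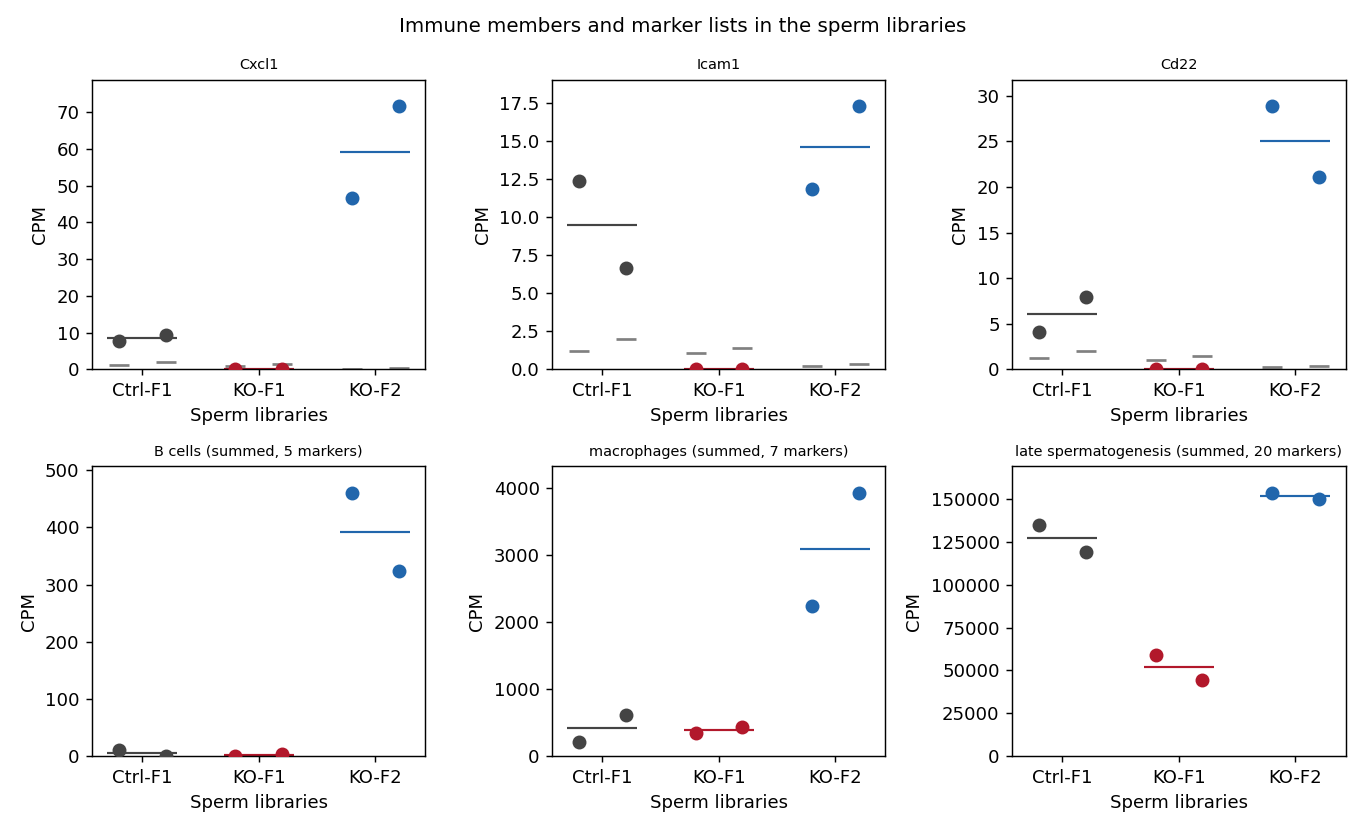
CPM (vertical axes, each from 0) of 3 immune members and the summed CPM of 3 marker lists in the sperm libraries of Ctrl-F1, KO-F1 and KO-F2 males; points are libraries, coloured bars the mean of 2 and, for the genes, grey dashes the detection limit of 3 counts. Cxcl1 and Cd22 are highest in KO-F2 with the B cell markers, at 460 and 324 CPM, and the late spermatogenesis sum is lowest in KO-F1, at 59303 and 44573 CPM.

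Of the signalling and enzyme genes, Gpc4 (chromosome X, 52051007 to 52164923), a cell surface heparan sulfate proteoglycan, had 22 and 25 counts in controls, 0 in both KO-F1 libraries and 3 and 17 in KO-F2. Relative to the controls, the KO-F1 level was at least 10.2-fold lower and the KO-F2 mean 11.2 times lower. Prok2, a secreted ligand with roles in circadian and olfactory signalling, had 20 and 13 counts in controls, 0 in both KO-F1 libraries and 163 and 69 in KO-F2, where it overlapped the controls. Acpp, an acid phosphatase, behaved like Gpc4, with 27 and 18, 0 and 0, and 7 and 10 counts in the same order, a KO-F2 mean 12.8 times below the controls. Galntl6, a member of the GalNAc transferase family, had 34 and 15, 0 and 1, and 38 and 25 counts. Elovl4, an elongase of very long chain fatty acids, had 14 and 13 counts in controls and none in KO-F1. All 3 enzyme genes were below both controls in KO-F2, as were 24.6% of the genes with 10 or more counts in each Ctrl-F1 library.

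Of the 6 genes grouped as channels and transporters, 5 overlapped the controls in KO-F2 or were above them. Most of the genes with 10 or more counts in each Ctrl-F1 library did so too, as 24.6% of them had both KO-F2 libraries below both controls. Itprip (chromosome 19, 47894590 to 47919323), a protein that binds the inositol trisphosphate receptor, had 26 and 37 counts in controls, 0 and 2 in KO-F1 and 320 and 219 in KO-F2. Its KO-F2 mean of 27.0 ± 1.27 CPM was 1.53 times that of the controls, 17.7 ± 9.82 CPM (SD, n = 2), with both libraries above. Slc45a4, a solute carrier, had 20 and 27, 0 and 1, and 115 and 59 counts, and Abca14, an ABC transporter, 18 and 12, 2 and 1, and 127 and 66. The potassium channel subunits Kcng4 and Kcne3 overlapped the controls, with 121 and 64 counts in KO-F2 for Kcng4 and 112 and 69 for Kcne3. Mfsd3, a predicted transporter, was below both controls in KO-F2. It had 16 and 30 counts in controls, 0 in both KO-F1 libraries and 52 and 44 in KO-F2, where its mean was 2.71 times lower than in the controls.

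Of the cytoskeletal and trafficking genes, Plekhm3, which acts in vesicle transport, had 18 and 19 counts in controls, 0 in both KO-F1 libraries and 125 and 77 in KO-F2, equal to the controls in mean CPM at 10.0. Gypc, a membrane skeleton anchor of red cells, had 20 and 11 counts in controls, none in KO-F1 and 23 and 53 in KO-F2, below both controls. Mreg, which acts in organelle transport, had 11 and 14, 2 and 1, and 59 and 36 counts. Mical1, an actin-oxidizing enzyme, overlapped the controls in KO-F2, while the smoothelin-like gene Smtnl1 was below them. The genes of replication, repair and ribosome assembly were Dtl, a receptor of a ubiquitin ligase, Parpbp, a PARP1-binding protein, and Urb2, a nucleolar protein. They had between 10 and 20 counts in each control library, and Parpbp and Urb2 were below both controls in KO-F2.

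Another 6 genes had no assigned role. Of these, 6330403K07Rik (chromosome 11, 71031941 to 71033617) had 23 and 87 counts in controls, 0 in both KO-F1 libraries and 33 and 45 in KO-F2. Its lower bound in KO-F1, at least 26.7-fold, was the largest of the 20 bounds, which ran from 4.80 to 26.7 with a median of 6.76, but it rested mostly on Ctrl-F1 replicate 2. Tmem220 (chromosome 11, 67025154 to 67035312), a predicted membrane protein, had 13 and 12 counts in controls, 0 in both KO-F1 libraries and 5 and 0 in KO-F2. Its KO-F2 mean of 0.218 ± 0.308 CPM (SD, n = 2) was the lowest of the 43. Dbndd1, Fam69b, Ifltd1 and Fam131c overlapped the controls in KO-F2.

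Over the 43 genes, 41 were above the detection limit in both KO-F2 libraries, against 99.8% of the genes with 10 or more counts in each Ctrl-F1 library. The others were Tmem220 and Gpc4, each above it in 1 library. No member had 0 counts in both KO-F1 and both KO-F2 libraries. The KO-F2 libraries are deeper, so their counts were also thinned to the 1503733 counts of the smallest F1 sperm library. Then 27 of 43 members (62.8%) had more than 3 counts in both, against 96.7% of the comparison genes. These shares are not matched for abundance: the control median was 8.57 CPM for members and 24.3 CPM for the comparison genes. The genes with the same range of pooled control counts were not thinned separately. In CPM, both KO-F2 libraries were below both controls for 21 members, with a background of 24.6%, and above both for 3, with a background of 27.9%. The remaining 19 overlapped.

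The median log2 difference, KO-F2 over Ctrl-F1 on the log2(CPM + 0.5) scale, was -0.72 over the members and 0.02 over the comparison genes. Left without Ctrl-F1 replicate 2, the member median was -0.40. Members were chosen for high counts in these same control libraries, so this difference is a description and received no test. The mean was lower in KO-F2 for 33 members and higher for 10, with backgrounds of 49.1% and 50.9%. Of those 10, 4 (Dbndd1, Ifltd1, Kcne3 and Plekhm3) turned lower under at least 1 other scaling of the libraries, and 6 (Abca14, Cd22, Cxcl1, Icam1, Itprip and Prok2) did not. Per kilobase of exon, which allows genes to be ranked, Cxcl1 was highest in KO-F2 at 62.0 CPM per kb, followed by Prok2 at 7.42, Pld6 at 7.31 and Itprip at 6.78.

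**Figure D3:**
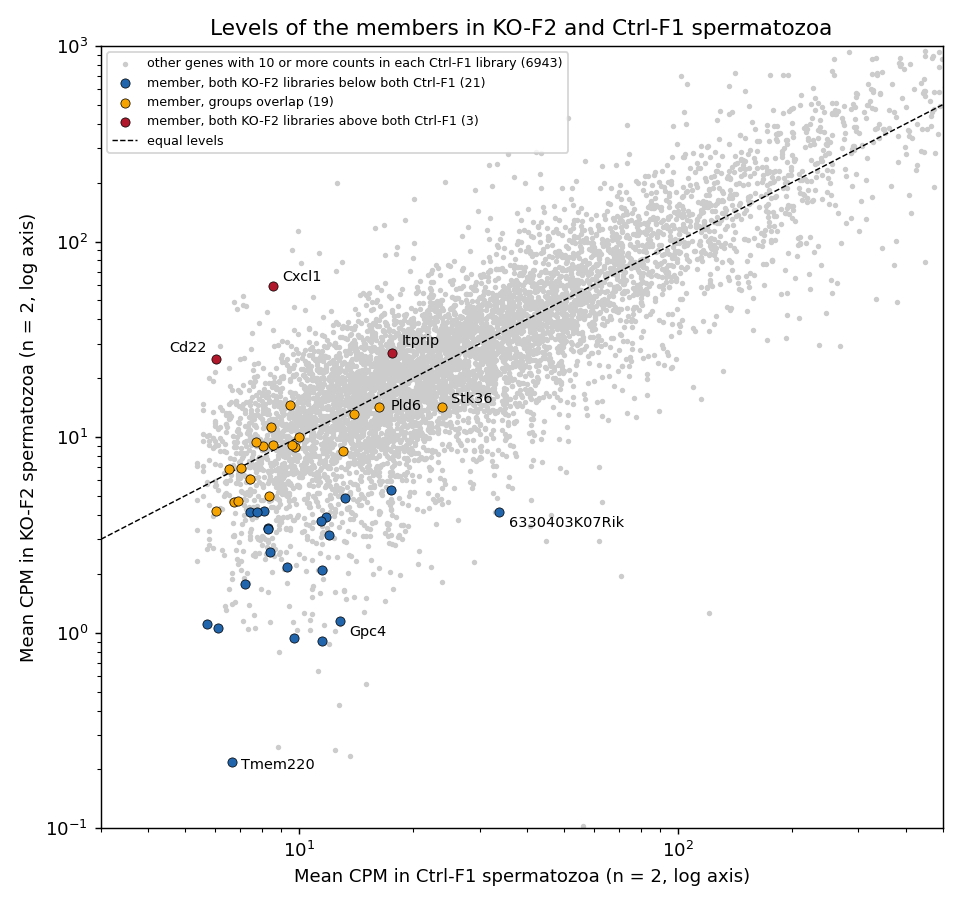
Mean CPM in Ctrl-F1 (horizontal, log axis) and KO-F2 spermatozoa (vertical, log axis) of the 43 members, coloured by whether the groups' libraries overlap, over 6943 other genes with 10 or more counts in each Ctrl-F1 library (grey; 167 of these genes lie outside the axes). Of the members, 21 (blue) have both KO-F2 libraries below both controls, 19 (orange) overlap and 3 (red: Cxcl1, Cd22 and Itprip) are above.

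Liver libraries did not enter the choice of genes. There, 21 of 43 members (48.8%) were above the detection limit in all 4 libraries, against 79.7% of the comparison genes, and 11 members (25.6%) had 0 counts in all 4, against 10.8%. The 11 were Abca14, Dnahc6, Elovl4, Galntl6, Gsc, Hsfy2, Ifltd1, Kcng4, Prok2, Smtnl1 and Tmprss12. The highest in liver was Gpc4, with 568 and 618 counts in controls and 549 and 430 in KO-F1, followed by Klf10. Mreg had 281 and 398 counts in control liver and 295 and 229 in KO-F1 liver. Tmem220, nearly undetected in KO-F1 and KO-F2 spermatozoa, had 215 and 177 counts in control liver and 159 and 169 in KO-F1 liver. Mfsd3 had 175 and 156 against 153 and 129. In CPM these 4 genes other than Klf10 overlapped between the groups. Members at 0 in KO-F1 spermatozoa, such as Gpc4, Mfsd3 and Tmem220, were thus above the detection limit in both KO-F1 livers.

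With edgeR's quasi-likelihood test over 11505 genes, none of the 20 members tested in liver was called at the thresholds of a 2-fold change and an adjusted p of 0.01, as was none of all genes (0.0%). At an unadjusted p under 0.05, 1 of the 20 passed, against 9.41% of all genes. DESeq2 gave some of these genes no adjusted p and so could not call them, among them the members Cxcl1, Kctd15 and Pld6. It called 1 member, against 0.174% of the 11505 genes, counted with or without an adjusted p. That gene by both counts was Klf10, with 336 and 258 counts in control liver and 765 and 490 in KO-F1 liver. It was higher in both KO-F1 libraries, by 1.39 ± 0.22 on the log2 scale (SE, n = 2 a group; edgeR adjusted p = 0.252, DESeq2 adjusted p = 0.000188). Over the alternative settings its adjusted p ran from 1.26e-05, without Ctrl-F1 replicate 1, to 0.258, with DESeq2's size factors in edgeR. Without Ctrl-F1 replicate 2, edgeR also called it.

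The next smallest p-values in liver belonged to Gypc and Smg8. Gypc had 123 and 141 counts in controls and 153 and 135 in KO-F1, a log2 difference of 0.45 ± 0.21 (SE; edgeR adjusted p = 0.545). Smg8 had 148 and 169 counts against 101 and 86, a difference of -0.43 ± 0.22 (SE; edgeR adjusted p = 0.578). Neither difference passed the test. Among the 21 members above the detection limit in all 4 libraries, 3 (Klf10, Kctd15 and Gypc) had both KO-F1 libraries above both controls, with a background of 16.0%, and 3 (Smg8, Pld6 and Urb2) had both below, with a background of 25.4%. Members not above the detection limit in all 4 libraries are not among these. Itprip had 8 and 12 counts in control liver and 3 in each KO-F1 library. For 6330403K07Rik the counts were 4 and 18 against 0 and 0, and for Dbndd1 3 and 4 against 0 and 1. Mical1 went the other way, with 3 and 5 against 7 and 8. The median log2 difference in liver was 0.02 over the 20 members and -0.01 over all genes.

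**Figure D4:**
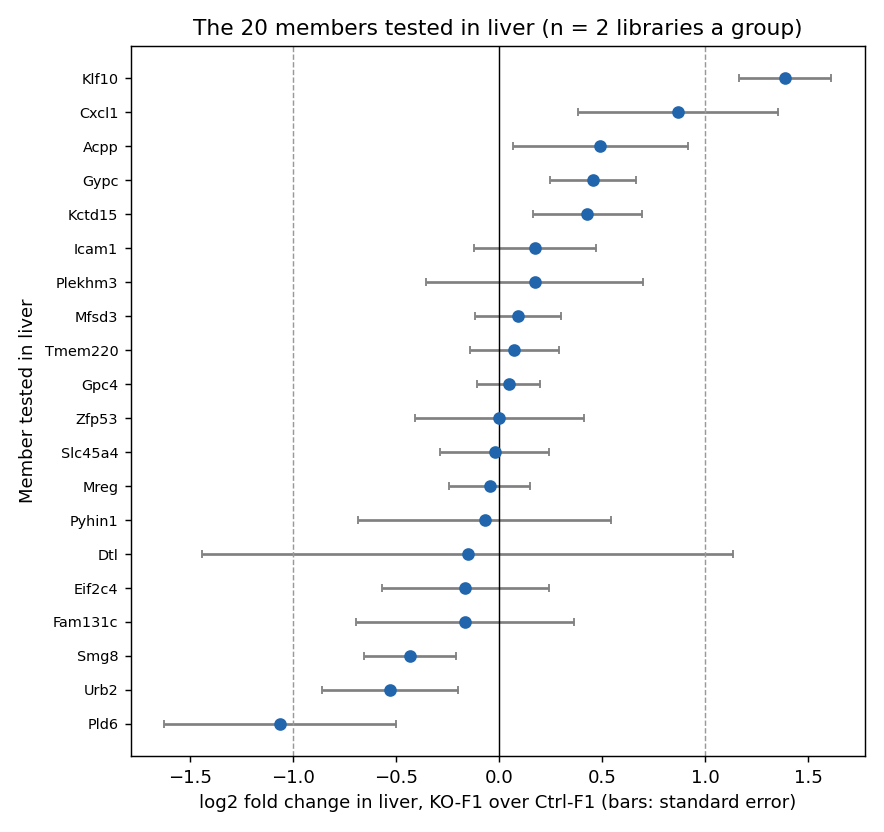
Log2 fold change in liver, KO-F1 over Ctrl-F1 (horizontal axis, edgeR), of the 20 members tested there (vertical axis), with standard errors as bars and dashed lines at a fold of 2 in each direction. Klf10, at 1.39, lies highest, Pld6, at -1.06, lowest, and none of the 20 passed the adjusted test.

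The edges of the rule show how fine the choice was. Just inside, 10 genes had a KO-F1 sum of 3, and just outside, 15 had a sum of 4, such as Slc35g3 with 44 and 41 counts in controls and 0 and 4 in KO-F1. With regard to the control counts, 8 members had 10 in their lower library, and 10 genes were left out at 9, such as Bcas1 with 38 and 9 against 0 and 0. The genes left out by name that met the counts were Inhbb, an inhibin subunit, with 29 and 23 counts in controls and none in KO-F1, and Krt23, a keratin, with 16 and 13 and none.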

How the data were processed

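The authors deposited 1 file of raw read counts per gene symbol for each of 10 mouse RNA-seq libraries, which were used as deposited. Per their methods and processing notes, single-end reads of 75 bp were aligned to GRCm38 with HISAT2 2.1.0 and uniquely aligned reads were counted with featureCounts; the annotation and strand setting are not given in the sources used here. A stranded mRNA kit was used for liver and a low-input kit with amplified cDNA, which does not mark strand, for spermatozoa. The chromatin and embryo samples of the series were not analysed here.

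Of 23420 lines a file, 23416 genes were kept, leaving out symbols listed more than once. Levels are CPM of the library total. Detection limits are 3 counts a library. A fold against members at 0 in KO-F1 is a lower bound, the Ctrl-F1 mean CPM over the mean detection limit of the KO-F1 libraries. It takes the control counts as exact, and the 10 counts that the rule asks of each control library limit how small it can be. Since the F1 sperm counts chose the members, no sperm comparison was tested. Liver was tested over all genes with edgeR 4.0.16 in R 4.3.3 (TMM, filterByExpr with minimum count 10 and minimum total count 15, quasi-likelihood F test, Benjamini-Hochberg adjustment), with calls at a fold of at least 2 and adjusted p under 0.01. DESeq2 1.42.0 was an alternative. The smallest two-sided p of an exact permutation test of 2 libraries against 2 is 0.333, for which reason the test was run across all genes. The study calls its replicates biological, the labels do not say whether each is 1 animal, and p-values measure only the spread between these libraries. Numbers and figures were made with Python 3.11.15, and the liver test was checked on simulated counts.

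The members, the lists of markers and the motifs were chosen with earlier results of these data known, and roles were assigned after the members were seen. Named with values in every sperm library are the 15 members highest in Ctrl-F1, the 10 highest in KO-F2, the 5 highest in liver and the 3 with the smallest p there; genes beyond these were named after their values were seen. None of the 19 marker lists holds a member, and the text gives the sums of some of them. All 43 symbols were matched to RefSeq (GRCm38.p6), 5 of them by an older symbol; a comparison of promoter CpG content was void because only 31 of 43 members (72.1%) have a single promoter entry.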

Additional observations from a re-analysis of the deposited data

Results flagged for a closer look

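Cxcl1, Cd22 and Itprip lay below the controls in KO-F1 and above them in KO-F2. Both KO-F1 sperm libraries were below both Ctrl-F1 libraries, as the choice of members fixed. Both KO-F2 libraries were above both Ctrl-F1 libraries, at 6.91, 4.13 and 1.53 times the control mean. This held for 3 of the 43 members, with a background of 27.9%. For Itprip the log2 difference fitted by edgeR, KO-F2 over Ctrl-F1, was 0.40 ± 0.77 (SE). Both comparisons share the control libraries, and the difference between them was not tested. The B cell markers summed to at most 10.7 CPM in an F1 sperm library and to 460 and 324 CPM in KO-F2. Mast cell markers summed to at most 23.9 CPM in an F1 sperm library and to 439 and 205 CPM in KO-F2. The part of either cell type in these values was not tested.

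Klf10, Gypc and Kctd15 were lower in KO-F1 spermatozoa by the choice of members, and in liver both KO-F1 libraries were above both Ctrl-F1 libraries. Their liver log2 fold changes were 1.39, 0.45 and 0.43. They were 3 of the 21 members above the detection limit in all 4 liver libraries, with a background of 16.0% for this direction. The difference between tissues was not tested, and in liver itself edgeR called none of these genes.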

How the results depend on the processing

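The number of members depended on the limits of the rule and on single libraries: 20 with a KO-F1 sum of 0, 75 with 5 or fewer, 147 with 5 or more and 6 with 20 or more counts in each Ctrl-F1 library. Left to 1 library of a group, the rule found 152 genes without Ctrl-F1 replicate 1, 388 without Ctrl-F1 replicate 2, 225 without KO-F1 replicate 1 and 165 without KO-F1 replicate 2. With counts thinned to the smallest F1 sperm library it found 63, of which 30 were members, and the rule with the groups exchanged found 178. In KO-F2 spermatozoa, thinned counts left 27 members (62.8%) above the detection limit in both libraries, against 96.7% of the comparison genes. These shares are not matched for abundance, and the cause of the difference was not tested. The median log2 difference was -0.98 with totals without Rn45s (a ribosomal RNA gene with between 3.52% and 28.7% of sperm counts), where that of the comparison genes was -0.25, and between -0.95 and -0.40 when a replicate was left out. The number of members below both controls ranged from 22 to 31 when a replicate was left out.

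In liver, DESeq2 and edgeR without a filter on low counts each called 1 member, Klf10, as did edgeR without Ctrl-F1 replicate 1 or 2; leaving out a replicate gave 0 to 1 calls and a median log2 fold change between -0.10 and 0.19. The cause was not tested. With the replicate number as a block, no member was called and the median was 0.02, and the edgeR adjusted p of Klf10 was 0.0331 instead of 0.252. Same-numbered liver samples did not deviate together (correlation -0.16 over 11505 genes). With 2 libraries a group this is 1 value, which cannot exclude a pairing. A block with crossed numbers, added after seeing the data, also called 0 members. Under the other alternatives, counts stayed within 1.5 times their value and medians within 1 SD of the medians of single library pairs.

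Depth is a limit: a member at 10 counts in a Ctrl-F1 library is close to the detection limit of 3, and with 2 libraries a group the spread between libraries is poorly known. Levels under 1.08 CPM are below the detection limit of every F1 sperm library.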

Other observations

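The 43 genes lay on 16 chromosomes, with 6 each on chromosomes 1 and 11 and 5 on chromosome 15. The shares were 14.0%, 14.0% and 11.6%, against 5.8%, 8.82% and 4.37% of the genes with 10 or more counts in each Ctrl-F1 library. The closest pair, Dbndd1 and Urb2 on chromosome 8, lay 503220 bp apart. Exon length per gene had a median of 4055 bases over the members, from 955 (Cxcl1) to 13681 (Dnahc6), and of 3150 bases over the comparison genes.

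Of the 5 Sertoli cell markers, genes of the somatic cells that nurse spermatids, Sox9 alone had more than 12 counts in a sperm library: 0 in both Ctrl-F1 libraries, 148 and 87 in KO-F1 and 30 and 131 in KO-F2. Amh, Rhox5 and Cldn11 were at 0 in all F1 sperm libraries. The 12 epididymal principal cell markers summed to 18365 and 5641 CPM in Ctrl-F1, 9420 and 11794 CPM in KO-F1 and 2939 and 1412 CPM in KO-F2. Crisp1 held most of each sum, with 44302 and 8193, 25633 and 24072, and 32737 and 10567 counts in the same order, while Lcn9 had 7 and 12, 32 and 22, and 172 and 335. None of these genes is a member.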
